A study of Mus musculus with 6 samples.

Results

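The mouse genes named Ube2, most of which encode ubiquitin-conjugating (E2) enzymes, were examined in fully grown oocytes that lack the RNA acetyltransferase NAT10. The family was taken as every gene symbol that starts with Ube2 followed by a letter, with 3 symbols marked as pseudogenes by a -ps ending left out. This rule gave 40 of the 55291 symbols in the deposited table, and it uses no measured value. The labels give 3 libraries from Gdf9-cre Nat10 cKO females and 3 from WT females. In the knockout, Cre expressed from the Gdf9 promoter deletes Nat10 in oocytes; both groups received PMSG, a gonadotropin that makes follicles grow. Per the labels, oocytes were taken up to 48 h after PMSG (the earliest time is given as 32 h in one place and 36 h in another), 10 oocytes were lysed per library, and cDNA was made from polyadenylated RNA by Smart-seq2. Each library received 0.2 µl of an ERCC spike-in diluted 1:1000. The sources used here give neither the age nor the strain of the females, nor whether the libraries of a group came from different females. Every p-value therefore measures the spread between these libraries, which may be technical.

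Ubiquitin and its relatives reach their targets through a cascade. An E1 enzyme activates the modifier, an E2 carries it as a thioester on a catalytic cysteine, and an E3 ligase brings the loaded E2 to the substrate; the E2 often decides which lysine of ubiquitin a chain is built on. Most E2 enzymes handle ubiquitin, while Ube2m and Ube2f serve NEDD8 and Ube2l6 serves ISG15. Oocytes rely on this system because meiotic divisions need the timed destruction of cyclins and securin by the anaphase-promoting complex (APC/C), and maternal proteins are cleared after fertilisation.

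The family name did not hold for every symbol. Ube2cbp, now named Ube3d, encodes a protein that binds E2 enzymes and is not an E2 itself. Ube2uos is an RNA annotated on the strand opposite Ube2u, inside the Ube2u gene but without exon overlap (GRCm38 chr4:100523247-100527801). Ube2d4 and Ube2nl are annotated as processed pseudogenes in mouse. Ube2v1 and Ube2v2 are E2 variants without a catalytic cysteine that act as partners of Ube2n. These symbols stayed in the family because the rule includes them, and each is named where it is counted.

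The stretch around the catalytic cysteine is shown for 6 of the 10 members that were called between genotypes (Ube2a, Ube2e1, Ube2g1, Ube2h, Ube2s and Ube2u) and for 2 close relatives of called members (Ube2b and Ube2d3), so that related enzymes can be compared. Ube2v2, Ube2j2, Ube2d2a and Ube2q2 were also called and are not shown. Each line gives 42 coding bases, 5′ to 3′ on the coding strand, from GENCODE M21 transcripts on GRCm38 (the same assembly as mm10), beginning at the codon for the histidine of the conserved His-Pro-Asn or His-Cys-Asn motif, with the cysteine codon in capitals.
Ube2a: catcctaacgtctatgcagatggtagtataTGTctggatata
Ube2b: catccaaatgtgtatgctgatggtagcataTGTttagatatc
Ube2d3: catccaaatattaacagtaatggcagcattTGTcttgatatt
Ube2e1: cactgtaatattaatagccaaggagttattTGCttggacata
Ube2g1: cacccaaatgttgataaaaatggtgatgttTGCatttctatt
Ube2h: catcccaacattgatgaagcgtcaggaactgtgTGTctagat
Ube2s: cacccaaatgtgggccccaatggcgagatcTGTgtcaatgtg
Ube2u: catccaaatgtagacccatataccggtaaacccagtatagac
The stretches lie at chrX:36881737-36882630 (plus strand) for Ube2a, chr11:51988669-51991403 (minus) for Ube2b, chr3:135459999-135460040 (plus) for Ube2d3 and chr14:18284356-18284397 (minus) for Ube2e1. Those of Ube2g1, Ube2h, Ube2s and Ube2u lie at chr11:72673048-72677736 (plus), chr6:30241403-30242557 (minus), chr7:4810470-4810511 (minus) and chr4:100482865-100486678 (plus). Those of Ube2a, Ube2b, Ube2g1, Ube2h and Ube2u span an intron. Ube2a and Ube2b differ at 8 of the 42 bases, and over the full coding sequence they share 77.6% of bases and 95.4% of translated residues. The stretch of Ube2u holds the motif but no cysteine codon, as does that of Ube2q2.

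Recovered reads numbered 47.4 to 74.1 M in the Nat10 cKO libraries and 33.5 to 65.5 M in the WT libraries. Levels are given as CPM (counts scaled to the size of the library) with TMM scaling, and as TPM where genes are compared with each other, since TPM divides by gene length. Nat10 itself stood at 5.72, 5.97 and 6.32 CPM in Nat10 cKO replicates 1, 2 and 3, against 42.1, 50.1 and 39.4 CPM in WT replicates 1, 2 and 3 (log2 fold change -2.67, SE 0.129). Every list of 3 values below follows this order of replicates. At a Benjamini-Hochberg adjusted p of 0.05 in limma, 35.0% of the 18353 genes tested were called, 17.4% as higher and 17.6% as lower in Nat10 cKO oocytes. Library size follows genotype in part, and its share in the results was not tested.

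Ube2 transcripts together took 0.60% to 0.63% of the reads in Nat10 cKO libraries and 0.59% to 0.64% in WT libraries. Summed per length, the family stood at 3217 to 3236 TPM in Nat10 cKO libraries and 3124 to 3250 TPM in WT libraries, so the groups overlapped. Both values are shares within a library, so a change in total RNA per oocyte would not show in them. Other cells in a pool would enter these shares too.

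Ube2t, the E2 of the Fanconi anemia ligase FANCL, had the highest level per length. It stood at 511, 502 and 487 TPM in Nat10 cKO oocytes and 579.7, 494 and 549 TPM in WT oocytes. Ube2a, a RAD6-type E2 that ubiquitinates PCNA and histone H2B, followed with 413, 428 and 404 TPM in Nat10 cKO oocytes and 326, 320.4 and 352 TPM in WT oocytes. The lowest Ube2t value lay above the highest Ube2a value, whereas the ranges of Ube2a and of the next 5 genes overlapped from neighbour to neighbour.
Ube2w, which attaches ubiquitin to N-terminal amino groups, came next with 332, 333 and 301 TPM in Nat10 cKO oocytes and 329.5, 267 and 318 TPM in WT oocytes. Ube2g1, an E2 for Lys48-linked chains, had 237, 209 and 251 TPM in Nat10 cKO oocytes and 316, 296 and 301 TPM in WT oocytes. Ube2c, which places the first ubiquitins on APC/C substrates, had 278, 296 and 246 TPM in Nat10 cKO oocytes and 233, 251 and 256 TPM in WT oocytes. These 5 genes held 52.5% to 54.9% of the summed family level in Nat10 cKO libraries and 52.1% to 54.9% in WT libraries. This share rests on the union exon length. By median transcript length, Ube2d3, not among the 5, held 32.8% to 36.4% in Nat10 cKO libraries and 30.9% to 33.4% in WT libraries.

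Below them, the mean level over all 6 libraries was 257 TPM for Ube2b, 242 for Ube2d3, 166 for Ube2k, 114 for Ube2g2, 111 for Ube2h and 78.0 for Ube2n. A middle group ran from Ube2d2a (44.9 TPM) through Ube2s (42.2), Ube2e3 (39.9), Ube2cbp (37.9), Ube2j1 (29.7), Ube2q2 (26.6), Ube2u (25.8), Ube2j2 (25.1), Ube2z (23.4), Ube2o (19.6), Ube2e1 (14.0), Ube2f (12.5) and Ube2m (12.0). Ube2q1 (9.29 TPM), Ube2l3 (8.62), Ube2d1 (8.07), Ube2r2 (7.69), Ube2v2 (6.53), Ube2e2 (4.07), Ube2uos (3.21), Ube2dnl1 (3.03), Ube2v1 (1.19) and Ube2ql1 (0.423) closed the order of tested members. Of the 39 neighbouring pairs over all members, 32 had overlapping ranges over the 6 libraries. These pairs include the untested members at the end, which have few or no reads and overlap for that reason. Most single steps in the order are within the spread between libraries.

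Ube2d3, a broadly acting E2 that starts chains for many RING ligases, had the most reads of the family. Its CPM was 2183, 2231 and 1869 in Nat10 cKO oocytes and 1879, 1724 and 2065 in WT oocytes, which is 31.7% to 35.8% of the family's reads in Nat10 cKO libraries and 29.4% to 31.9% in WT libraries. Its place per length rests on the length used, because its annotated exons cover 24499 bases while its median transcript has 869.5 bases. With the median transcript length, an alternative chosen after the data were seen, Ube2d3 ranked first with a mean of 2521 TPM, ahead of Ube2w (1055 TPM) and Ube2t (892 TPM), and Ube2g1 and Ube2c ranked 13 and 12. Across the 40 members the orders by the 2 lengths had a Spearman rho of 0.92, a description across genes that share the same libraries.

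**Figure D1:**
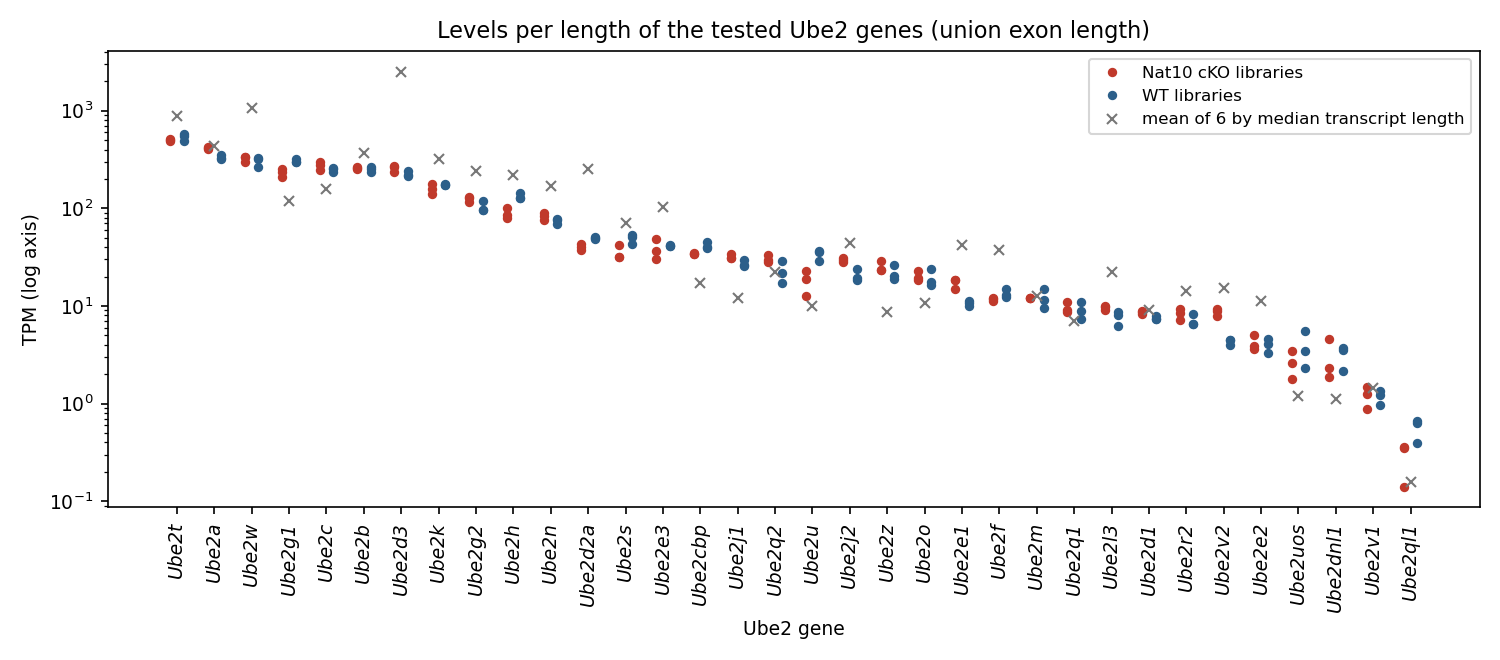
Level of 34 tested Ube2 genes per length (TPM, log axis) in the 3 Nat10 cKO (red) and 3 WT (blue) libraries, ordered by level; each point is a library, and crosses are means of all 6 with the median transcript length. By union exon length Ube2t stands highest with 487 to 579.7 TPM, and in most neighbouring genes the points overlap.

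Of the 40 members, 35 had enough reads to be tested. In Nat10 cKO oocytes 5 members rose and 5 fell, so that 10 of 35 (28.6%) were called, beside the 35.0% of all genes tested. The risers were Ube2v2, Ube2e1, Ube2j2, Ube2q2 and Ube2a, and the fallers were Ube2u, Ube2h, Ube2s, Ube2g1 and Ube2d2a. None of the 10 reached a 2-fold change, which 823 of all called genes did. The median log2 fold change was 0.02 over the members and 0.00 over all genes tested, and the median absolute change was 0.19 against 0.24. Groups did not overlap for 14 of 35 members (40.0%), 6 with all Nat10 cKO libraries higher and 8 with all lower, beside 48.3% of all genes. The share of the family that was called therefore lay near, and slightly under, that of the transcriptome.

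**Figure D2:**
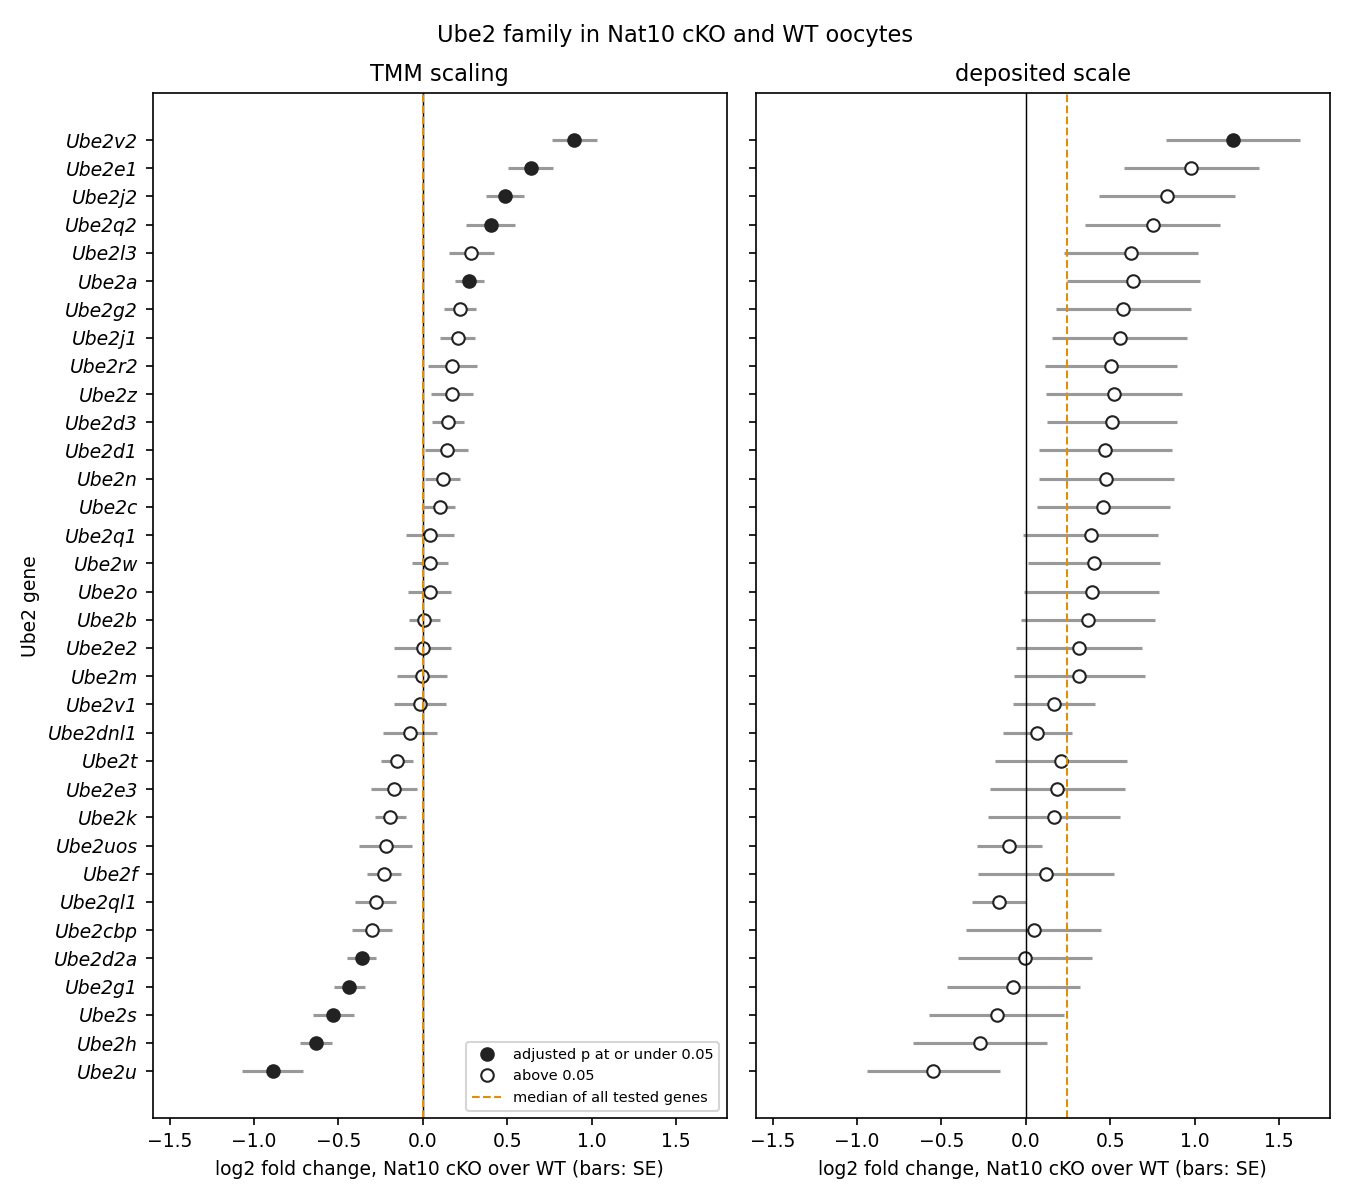
Log2 fold change of 34 tested Ube2 genes, Nat10 cKO over WT, with its standard error, under TMM scaling on the left and on the deposited scale on the right; filled points passed an adjusted p of 0.05 in limma, and dashed lines are medians of all tested genes. Under TMM the called genes run from Ube2u at -0.89 to Ube2v2 at 0.90, with 5 on each side of 0, and on the deposited scale only Ube2v2 is filled.

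The member with the largest rise was Ube2v2, a catalytically inactive E2 variant that pairs with Ube2n to build Lys63-linked chains (GRCm38 chr16:15552077-15595773, minus strand). It stood at 21.0, 22.3 and 18.5 CPM in Nat10 cKO oocytes and 11.3, 9.28 and 11.2 CPM in WT oocytes. Every Nat10 cKO library lay above every WT library, and the means differed 1.86-fold on the log2(CPM + 1) scale (log2 fold change 0.90, SE 0.134, adjusted p = 0.00034). Its catalytic partner Ube2n was not called, with 115 ± 11.3 CPM in Nat10 cKO oocytes and 106 ± 10.4 CPM in WT oocytes (SD, n = 3 each; log2 fold change 0.12). The other partner, Ube2v1, had 1.08 ± 0.285 CPM in Nat10 cKO oocytes and 1.10 ± 0.211 CPM in WT oocytes (SD, n = 3 each; log2 fold change -0.02, which turned positive with library sizes only and on the deposited scale). Exons of Gm20431, another gene model on the same strand, listed at 0 in every library, cover 61.5% of the exon bases of Ube2v1, and how reads in shared exons were counted is not stated, so the level of Ube2v1 is uncertain.

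Among the broadly acting E2 enzymes of the Ube2d and Ube2e groups, Ube2e1 rose and Ube2d2a fell. Ube2e1 (chr14:18282722-18331859, minus strand), a priming E2 with an N-terminal extension, had 27.7, 27.8 and 21.7 CPM in Nat10 cKO oocytes and 17.4, 14.4 and 16.4 CPM in WT oocytes. The groups did not overlap (log2 fold change 0.64, SE 0.133, adjusted p = 0.00275). Nkiras1, on the opposite strand, overlaps 16.1% of Ube2e1 exon bases and had a mean of 203 CPM in Nat10 cKO oocytes and 175 CPM in WT oocytes; its part in the Ube2e1 value was not tested, and strand use in counting is not stated.
Ube2d2a (chromosome 18, 35771558 to 35809494, plus strand) had 154, 143 and 162 CPM in Nat10 cKO oocytes and 198, 189.5 and 203 CPM in WT oocytes. The highest Nat10 cKO library was lower than the lowest WT library (log2 fold change -0.36, SE 0.086, adjusted p = 0.00577). Its close relative Ube2d3, which shares 83.6% of coding bases and 95.9% of translated residues with it, was not called (log2 fold change 0.15).
Ube2e2 had the smallest change of the family, with 5.94, 5.55 and 7.53 CPM in Nat10 cKO oocytes and 7.45, 5.03 and 6.61 CPM in WT oocytes (adjusted p = 1). Its groups overlapped throughout, and the sign of its change varied between settings. Ube2e3 had 55.8 ± 12.2 CPM in Nat10 cKO oocytes and 62.0 ± 3.25 CPM in WT oocytes, and Ube2d1 had 12.5 ± 0.562 and 11.3 ± 0.877 CPM in Nat10 cKO and WT oocytes (SD, n = 3 each). Ube2w, counted here with the broadly acting enzymes, had 527 ± 36.4 CPM in Nat10 cKO oocytes and 515 ± 75.5 CPM in WT oocytes (SD, n = 3 each). Neither it nor Ube2e3 nor Ube2d1 was called, though Ube2e3 was without Nat10 cKO replicate 3 (adjusted p = 0.0309). Ube2dnl1, a Ube2d-like gene on the X chromosome, was low, with 0.715 ± 0.344 CPM in Nat10 cKO oocytes and 0.794 ± 0.212 CPM in WT oocytes (SD, n = 3 each).

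Of the RAD6-type pair, Ube2a was called and Ube2b was not. Ube2a (chrX:36873900-36884222, plus strand) had 313, 325 and 299.6 CPM in Nat10 cKO oocytes and 259.6, 238 and 278 CPM in WT oocytes. The groups did not overlap, and the rise was small (log2 fold change 0.28, SE 0.087, adjusted p = 0.0251). The call was lost without Nat10 cKO replicate 1 (adjusted p = 0.082), Nat10 cKO replicate 2 (0.0799) or WT replicate 1 (0.0587). Ube2b, which acts redundantly with Ube2a in many cells and is needed for spermatogenesis in mice, had 181, 186 and 186 CPM in Nat10 cKO oocytes and 198, 164 and 189 CPM in WT oocytes. Its Nat10 cKO libraries lay inside the WT range (log2 fold change 0.01, SE 0.091).

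Of the E2 enzymes for Lys48-linked chains and endoplasmic reticulum (ER) quality control, Ube2g1 fell and Ube2j2 rose. Ube2g1 (chr11:72607283-72686481, plus strand) had 361, 321 and 376 CPM in Nat10 cKO oocytes and 508, 443 and 479 CPM in WT oocytes. No library of either group reached into the other (log2 fold change -0.44, SE 0.090, adjusted p = 0.00263). Ube2j2 (chr4:155943831-155959604, plus strand), an E2 anchored in the ER membrane, had 43.6, 45.8 and 40.8 CPM in Nat10 cKO oocytes and 28.2, 34.5 and 29.5 CPM in WT oocytes. Here too the groups were separate (log2 fold change 0.49, SE 0.111, adjusted p = 0.00457).
The relatives of both genes were not called. Ube2j1, the other membrane-anchored E2, had 37.8 ± 2.43 CPM in Nat10 cKO oocytes and 32.6 ± 1.43 CPM in WT oocytes, and Ube2g2, the soluble E2 of the ER ligases, had 100.2 ± 6.04 and 85.9 ± 6.71 CPM in Nat10 cKO and WT oocytes (SD, n = 3 each). Ube2k, which extends Lys48-linked chains, had 413 ± 45.1 CPM in Nat10 cKO oocytes and 471 ± 20.2 CPM in WT oocytes (SD, n = 3 each). Ube2r2, a CDC34-type E2 of cullin-RING ligases, had 11.5 ± 1.55 CPM in Nat10 cKO oocytes and 10.1 ± 0.998 CPM in WT oocytes (SD, n = 3 each). The log2 fold changes of these 4 genes lay between -0.19 and 0.22, and a call was gained for Ube2k without Nat10 cKO replicate 3 (adjusted p = 0.0318) and for Ube2g2 without WT replicate 2 (adjusted p = 0.0281).

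Of the E2 enzymes that work with the APC/C, Ube2s was called and Ube2c was not. Ube2s (chr7:4794546-4812590, minus strand), which elongates Lys11-linked chains on APC/C substrates, had 54.0, 54.7 and 71.0 CPM in Nat10 cKO oocytes and 95.8, 86.0 and 77.7 CPM in WT oocytes. All Nat10 cKO libraries lay below the lowest WT library, with Nat10 cKO replicate 3 the nearest to it (log2 fold change -0.53, SE 0.120, adjusted p = 0.00456). Ube2c had 241, 258 and 209 CPM in Nat10 cKO oocytes and 213, 213 and 232 CPM in WT oocytes. Its groups overlapped and it was not called (log2 fold change 0.10, SE 0.094). The ratio of Ube2c to Ube2s within a library also overlapped between groups (exact permutation p = 0.2).

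Ube2h and Ube2u were the fallers with the largest changes. Ube2h (chr6:30211289-30304539, minus strand), the E2 of the CTLH ligase that clears maternal proteins in flies, had 136, 127 and 157 CPM in Nat10 cKO oocytes and 213, 226 and 211 CPM in WT oocytes. The highest Nat10 cKO library lay well below the lowest WT library (log2 fold change -0.63, SE 0.094, adjusted p = 0.000347). Of the 50-base words of Ube2h transcripts, 46.3% also occur in transcripts of 4 other annotated genes, and how such reads were assigned is not stated.
Ube2u (chr4:100478849-100550147, plus strand), a little-studied gene with an E2 fold, had 9.71, 6.56 and 11.4 CPM in Nat10 cKO oocytes and 19.5, 14.5 and 19.0 CPM in WT oocytes. The groups did not overlap (log2 fold change -0.89, SE 0.182, adjusted p = 0.00247). Ube2uos, on the other strand of the same locus, had 0.526 ± 0.165 CPM in Nat10 cKO oocytes and 0.794 ± 0.364 CPM in WT oocytes (SD, n = 3 each) and was not called.
Ube2q2 (chr9:55148854-55207529, plus strand), of the UBE2Q family, was the weakest call. It had 40.7, 42.6 and 47.1 CPM in Nat10 cKO oocytes and 25.8, 40.8 and 32.9 CPM in WT oocytes, so the lowest Nat10 cKO library lay just under the highest WT library (log2 fold change 0.40, SE 0.144, adjusted p = 0.0433). The call was lost in edgeR's quasi-likelihood test (adjusted p = 0.0556), with no filter (0.0835), on the deposited scale (0.277) and with the deposited factors on shares of reads (0.643). It was also lost on leaving out any library but WT replicate 2, where the adjusted p ran up to 0.193 (without WT replicate 1). Its relatives Ube2q1, with 19.6 ± 2.25 CPM in Nat10 cKO oocytes and 19.1 ± 3.22 CPM in WT oocytes, and Ube2ql1, with 0.250 ± 0.108 and 0.518 ± 0.151 CPM in Nat10 cKO and WT oocytes, were not called (SD, n = 3 each). A call was gained for Ube2ql1 without WT replicate 2 (adjusted p = 0.0384).

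**Figure D3:**
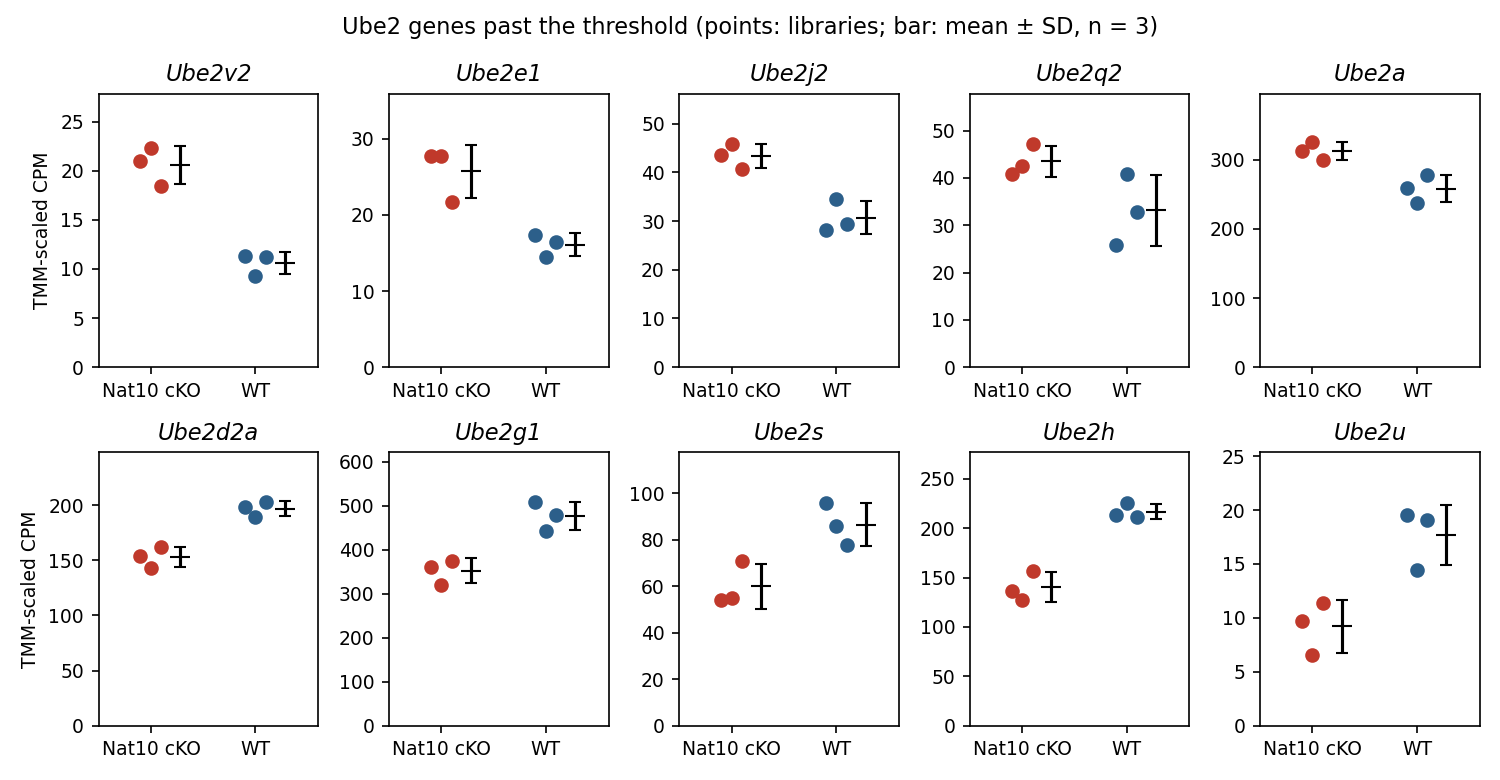
CPM of the 10 called Ube2 genes in each library, Nat10 cKO left and WT right in each panel; points are libraries and bars are means ± SD (n = 3). Apart from Ube2q2, where 40.7 CPM in a Nat10 cKO library lies just under 40.8 CPM in a WT library, the groups are separate in every panel.

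The remaining ubiquitin E2 enzymes were not called. Ube2t had 823, 812 and 769 CPM in Nat10 cKO oocytes and 984, 780.3 and 923 CPM in WT oocytes, with WT replicate 2 inside the Nat10 cKO range (log2 fold change -0.15, SE 0.093). Without that WT library it was called (adjusted p = 0.0228). Ube2l3, the E2 of RBR and HECT ligases, had 18.6 ± 0.992 CPM in Nat10 cKO oocytes and 15.1 ± 2.09 CPM in WT oocytes (SD, n = 3 each). The opposite-strand gene Ydjc overlaps 28.6% of the Ube2l3 exon bases.
Ube2o, a large enzyme with both E2 and E3 activity, had 35.2 ± 3.69 CPM in Nat10 cKO oocytes and 34.3 ± 5.69 CPM in WT oocytes (SD, n = 3 each). Ube2z, which takes ubiquitin from the E1 enzyme Uba6, had 33.3 ± 3.82 CPM in Nat10 cKO oocytes and 29.5 ± 3.92 CPM in WT oocytes (SD, n = 3 each). Ube2cbp, not an E2, had 20.4 ± 0.394 CPM in Nat10 cKO oocytes and 25.4 ± 2.65 CPM in WT oocytes (SD, n = 3 each; log2 fold change -0.30, adjusted p = 0.0613). Its groups did not overlap, and it was called with all libraries in DESeq2 (adjusted p = 0.0377) and with a filter on mean CPM (0.0484), and without WT replicate 2 (0.0364).

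Neither E2 of NEDD8 was called. Ube2m, the main E2 of NEDD8, had 9.39, 9.54 and 9.30 CPM in Nat10 cKO oocytes and 7.85, 11.3 and 9.39 CPM in WT oocytes (log2 fold change -0.00, SE 0.150). Its Nat10 cKO libraries lay within the WT range. Ube2f, the other E2 of NEDD8, had 34.2 ± 0.938 CPM in Nat10 cKO oocytes and 40.4 ± 2.23 CPM in WT oocytes (SD, n = 3 each); the groups did not overlap, yet the adjusted p was 0.0907 (log2 fold change -0.23).

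Too few reads were present to test 5 members. Ube2l6, the E2 of the interferon-induced modifier ISG15, had 12 reads over all 6 libraries, and Isg15 itself was listed at 0 in each. Ube2d2b had 12 reads, Ube2nl 16, Ube2dnl2 6 and Ube2d4 none. At these counts no difference between the genotypes was detectable.

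The direction of several members depended on the scaling. On the deposited scale, which keeps the authors' factor of each library and does not divide by its reads, the median log2 fold change moved to 0.24 over all genes and 0.38 over the members, and 28 of 35 members were positive, against 19 under TMM. Only Ube2v2 was called there (log2 fold change 1.23, adjusted p = 0.031), beside 7.97% of all genes, 6.58% higher and 1.39% lower. That call was lost without Nat10 cKO replicate 1 or 3 or WT replicate 1 or 2, which left no member called. Ube2h stood at -0.27, Ube2s at -0.17 and Ube2d2a at -0.00 on that scale, none of them called. All 10 members called under TMM kept their sign. When the authors' factors were applied to each library's share of reads instead, Ube2v2 rose and the same 5 members fell, while 22.1% of all genes were called, 5.60% higher and 16.5% lower, with a median over all genes of -0.15. Under TMM, edgeR called 9 of the 10 members in the same direction, beside 33.8% of all genes (16.6% higher and 17.2% lower).

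Ratios of related genes within a library do not depend on any factor shared by its genes. They were computed per length after adding 1 read to each gene. Across 15 pairs of paralogs or partners the groups did not overlap in 9, each with an exact two-sided permutation p of 0.1, the smallest that 3 against 3 libraries allow, and an adjusted p of 0.167. The share over gene pairs in general was not computed, and among single genes 48.3% of all tested did not overlap. Many of the pairs hold a called member, so their ratios draw on the same values as its call. Ube2v2 relative to Ube2n had the smallest spread within groups, at 0.107, 0.105 and 0.106 in Nat10 cKO oocytes and 0.0602, 0.0584 and 0.0588 in WT oocytes (per length, difference of mean log2 ratios 0.84). The gap between the groups was larger than the spread within either.
Ube2a relative to Ube2b stood at 1.62, 1.63 and 1.51 in Nat10 cKO oocytes and 1.23, 1.36 and 1.38 in WT oocytes. Ube2g1 relative to Ube2g2 stood at 2.06, 1.65 and 1.92 in Nat10 cKO oocytes and 3.29, 2.51 and 3.10 in WT oocytes. Ube2d2a relative to Ube2d3 stood at 0.150, 0.136 and 0.183 in Nat10 cKO oocytes and 0.223, 0.233 and 0.209 in WT oocytes. The differences of mean log2 ratios were 0.27, -0.66 and -0.51 in that order, and in each of these pairs 1 gene was called and its relative was not.
Ube2e1 relative to Ube2e3 varied more, at 0.508, 0.612 and 0.310 in Nat10 cKO oocytes and 0.272, 0.244 and 0.251 in WT oocytes, with Nat10 cKO replicate 3 nearest to the WT libraries. The differences of mean log2 ratios were -1.01 for Ube2v1 to Ube2v2, -0.37 for Ube2q1 to Ube2q2, -0.29 for Ube2j1 to Ube2j2 and 0.23 for Ube2m to Ube2f, all without overlap. The ratio of Ube2c to Ube2s, the APC/C pair, was 8.80, 9.31 and 5.83 in Nat10 cKO oocytes and 4.39, 4.91 and 5.89 in WT oocytes. Nat10 cKO replicate 3 lay just under WT replicate 3, so these groups overlapped (exact permutation p = 0.2). The groups also overlapped for the other 5 pairs, which were Ube2d1 to Ube2d3, Ube2e2 to Ube2e3, Ube2l3 to Ube2l6, Ube2v1 to Ube2n and Ube2r2 to Cdc34.

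**Figure D4:**
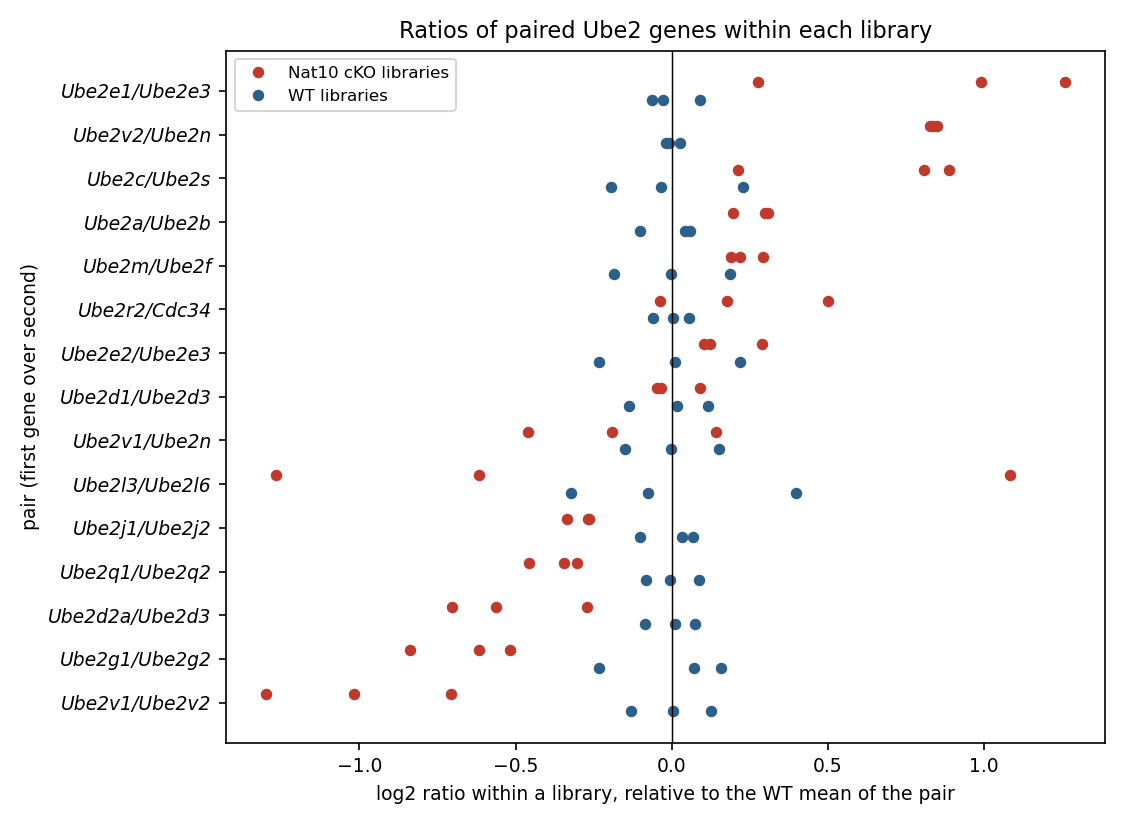
Log2 ratio of related Ube2 genes per length in each library, relative to the WT mean of the pair, with Nat10 cKO (red) above WT (blue) in each row; points are libraries. The Nat10 cKO points of Ube2v2 to Ube2n lie together, 0.84 from the WT mean on average, while the points of Ube2c to Ube2s overlap.

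Transcript composition was compared between called and uncalled members. Median GC content of the longest transcript was 42.1% for the 5 risers (35.1% to 50.8%) and 42.9% for the 5 fallers (38.8% to 49.6%), and 47.5% for the members not called (37.5% to 63.4%). Across the 35 tested members the Spearman rho of log2 fold change with GC content was -0.04 and with transcript length 0.04, a description across genes measured in the same libraries. Exons of 9 of the 40 members overlap exons of another gene, 11 members share over 10% of their 50-base words with other genes, and 15 share none. Of the called members, Ube2h, Ube2q2 (20.9%) and Ube2j2 (13.5%) are among those 11. Of the members, 27 have the His-Pro-Asn or His-Cys-Asn motif in their coding sequence, members on chromosome 18 left out of that search, and 24 of these have a cysteine codon within 10 codons of it.

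Upstream of the Ube2 genes in the cascade, the E1 and modifier genes were read from the same fit. Of 9 tested E1 genes, 2 rose and none fell (22.2%, beside 35.0% of all genes). A riser was Uba6, an E1 of ubiquitin that charges Ube2z, with 104 ± 2.72 CPM in Nat10 cKO oocytes and 78.3 ± 12.8 CPM in WT oocytes (SD, n = 3 each; log2 fold change 0.41). Nae1, a subunit of the NEDD8 E1, was not called (0.26, adjusted p = 0.0574). Among 13 modifier genes, 1 rose and none fell (7.69%): Urm1, which acts in tRNA thiolation, with 5.99 ± 1.08 CPM in Nat10 cKO oocytes and 2.47 ± 0.997 CPM in WT oocytes (SD, n = 3 each; log2 fold change 1.04). The polyubiquitin gene Ubb (log2 fold change -0.18, and 0.18 on the deposited scale) and Atg12 (0.22) were not called. Of 9 E2 and E2-variant genes without a Ube2 name, 2 rose and 1 fell (33.3%, near the 35.0% of all genes). Ufc1, the E2 of UFM1 (0.75), and Tsg101, an E2 variant of the ESCRT machinery (0.49), rose. Atg10, the E2-like enzyme of ATG12, fell (-0.72).

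Among the ligases and cofactors that partner the called E2 genes, some rose and some fell. The shares called are to be read beside 35.0% of all genes tested (17.4% higher and 17.6% lower), and in lists of 9 to 16 genes shares such as 41.7% to 45.5% lie near it. Of 11 tested CTLH subunits, the ligase of Ube2h, 2 rose and 3 fell (45.5%). The RING subunit gene Rmnd5a fell (65.0 ± 11.9 CPM in Nat10 cKO oocytes and 118 ± 8.75 CPM in WT oocytes; SD, n = 3 each; log2 fold change -0.86) and its paralog Rmnd5b rose (25.5 ± 4.32 CPM in Nat10 cKO oocytes and 10.9 ± 2.41 CPM in WT oocytes; SD, n = 3 each; log2 fold change 1.16), and the scaffold Ranbp9 fell (-0.46). Of 9 genes of the APC/C core and its regulators, 2 rose and 2 fell (44.4%). Anapc1, a scaffold subunit, rose (0.31), and the APC/C inhibitors Fbxo43 (-0.49) and Fbxo5 (-0.33, but 0.03 on the deposited scale) fell. Of 12 partners of Ube2a and Ube2b, 3 rose and 2 fell (41.7%), among them the histone H2B ubiquitination adaptor Wac (0.51), the N-degron ligase Ubr1 (0.58) and the PCNA ligase Hltf (-0.54).
Of 14 tested genes in the list of Lys63 ligases and other partners of Ube2n, 5 rose and 4 fell (64.3%, beside 35.0% of all genes). They include Traf2 (log2 fold change 0.87), the chaperone-bound ligase Stub1 (0.74) and Znrf2 (-0.73). The called genes of this list include Otub1 and Zranb1, which are not ligases. Fancl, the ligase of Ube2t, is also in the list and was not called. Of 13 ER ligases and adaptors, partners of Ube2g2, Ube2j1 and Ube2j2, 5 rose and 3 fell (61.5%), including Syvn1, the HRD1 ligase (0.64), Derl1 of the retrotranslocation machinery (0.51) and Rnf145 (-0.75). Of 39 RBR and HECT ligases, 13 rose and 8 fell (53.8%); Ankib1 (-1.54) and Nedd4l (-1.35) fell most among those named, followed by Rnf216 (-0.82).
Of 16 neddylation genes, 5 rose and 2 fell (43.8%, beside 35.0% of all genes), among them the RING subunit Rnf7 (log2 fold change 0.70), Cul4a (0.63) and the NEDD8 co-ligase Dcun1d5 (-0.51). Of 16 SUMO ligases and proteases, 4 rose and 3 fell (43.8%), among them Pias3 (1.18) and Pias1 (-0.35, but 0.01 on the deposited scale). Across all these lists, the median log2 fold change lay between -0.09 and 0.21.

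**Figure D5:**
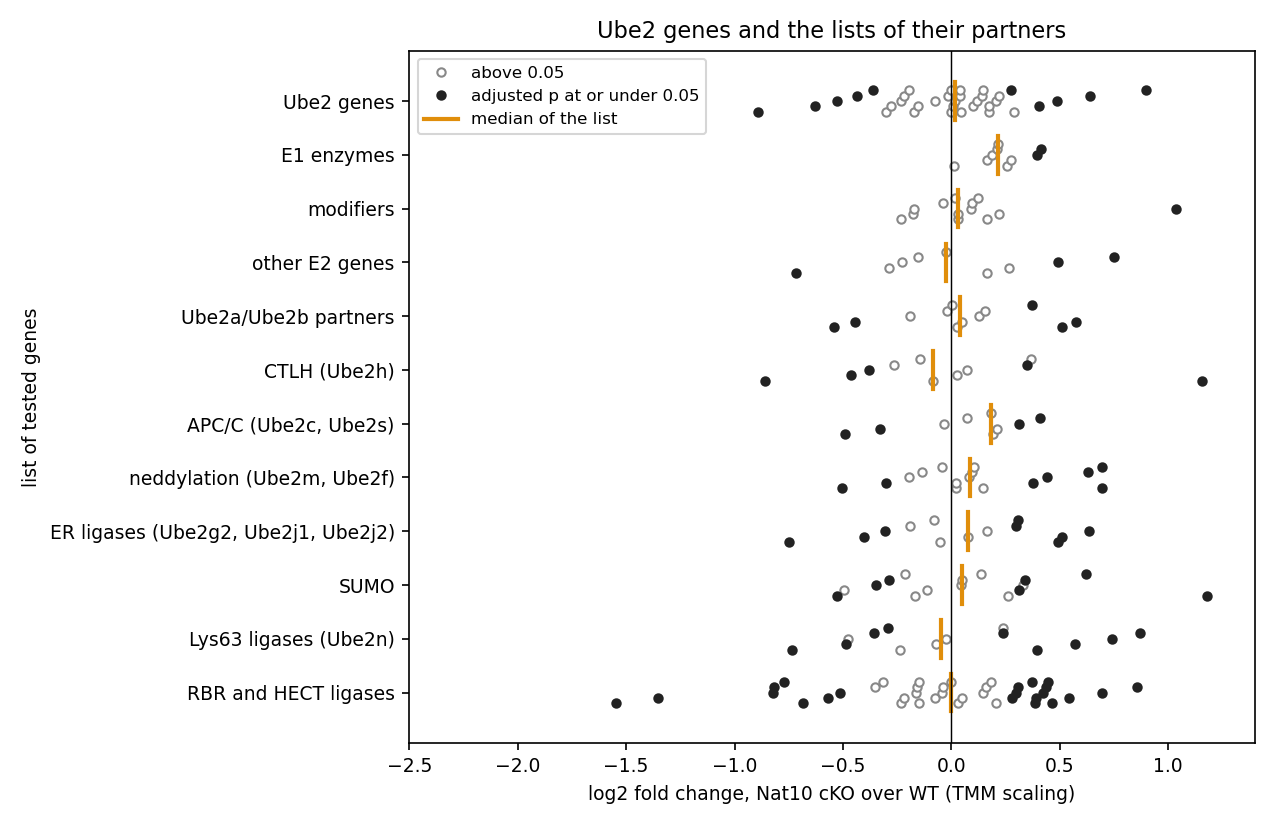
Log2 fold change, Nat10 cKO over WT, of the Ube2 genes and of the lists of modifiers, E1 enzymes, other E2 genes and ligases; filled points passed an adjusted p of 0.05 and bars are medians. Every list has a median close to 0, between -0.09 and 0.21, and the Ube2 genes run from -0.89 to 0.90.

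Markers of other ovarian cells were low beside those of oocytes. Their summed levels overlapped between groups for granulosa cells and for theca, stroma and endothelium, and not for oocytes or for blood and immune cells. Oocyte markers summed to 30200.3 to 35264 CPM in Nat10 cKO libraries and 25713 to 26498 CPM in WT libraries; 8 of 12 rose and 3 fell (91.7%, beside 35.0% of all genes), with Gdf9 at 6374 ± 414 CPM in Nat10 cKO oocytes and 4960.4 ± 385 CPM in WT oocytes and Bmp15 at 5491 ± 547 and 4593 ± 328 CPM in Nat10 cKO and WT oocytes (SD, n = 3 each). Granulosa markers summed to 394 to 436 CPM in Nat10 cKO libraries and 416 to 468 CPM in WT libraries, with 1 of 12 tested higher and 3 lower (33.3%); Serpine2 (log2 fold change -0.11, and 0.25 on the deposited scale) and Cyp19a1 (-0.32, and 0.03 on the deposited scale) were the most abundant. Markers of theca, stroma and endothelium summed to 94.9 to 109 CPM in Nat10 cKO libraries and 99.2 to 104 CPM in WT libraries (1 of 9 tested higher, 3 lower, 44.4%), led by Pecam1 (0.51) and Myh11 (-0.63), with Col3a1 at 0. Blood and immune markers summed to 41.4 to 45.0 CPM in Nat10 cKO libraries and 51.4 to 55.8 CPM in WT libraries (none of 4 tested higher, 1 lower, 25.0%), led by C1qb (-0.44) and H2-Aa (0.09), with C1qc at 0. The part of other cells in the Ube2 results was not tested.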

How the data were processed

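Polyadenylated RNA was sequenced from 3 Nat10 cKO and 3 WT libraries. The tools in the submitters' processing notes are STAR 2.7.10a, Trim Galore 0.6.7 and featureCounts, with the mm10 build; settings, annotation and strand use were not given in the sources used here. Values deposited for WT replicate 1 are whole counts. For the other 5 libraries the deposited values are a signal, namely counts times a factor per library (0.908 to 0.932 in the Nat10 cKO libraries, 1.38 in WT replicate 2, 0.945 in WT replicate 3). The origin of the factors is not stated. Reads were recovered as the quotient of each value and the smallest of its column; 100% came out whole to within 0.001.

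Levels were tested with limma 3.58.1 (trended, robust) on log2(CPM + 1) with TMM factors, a scale that makes the changes of low genes look smaller. Genes passed filterByExpr (minimum count 10), and p-values were adjusted by Benjamini-Hochberg over all 18353 genes, two-sided. Alternatives were other scalings and filters, pseudocounts of 0.5 and 0.1, a minimum mean of 1 CPM, edgeR 4.0.16, DESeq2 1.42.0, a replicate block and leaving out each library. TPM used the union of exons in GENCODE M21, which held all 40 members. Each called member had at least 312 reads in every library, and error bars cover the spread between libraries. The code ran in R 4.3.3 and Python 3.11.15 and was tested on simulated data. There, 41.2% of 1.5-fold, 64.2% of 2-fold and 89.4% of 4-fold changes set in randomly drawn genes were recovered. Far fewer genes were changed there than were called in the data, which made the adjusted p stricter there. The rates also average over low and high genes, so they need not hold for the members. A gene that was not called may still differ.

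The members, the gene lists and the tests were chosen with earlier results of these data known. Values per library are given for called members, the 5 highest per length and the 3 smallest changes; in each gene list the 3 genes with the smallest p are named, and in each marker list the 2 most abundant. A few genes that this rule names are not reported here.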

Additional observations from a re-analysis of the deposited data

How the results depend on the processing

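The count of called members stayed between 9 and 11 under the 8 alternatives of tool, filter, pseudocount and read-based scaling. The call of Ube2v2 held under 17 alternatives, which do not include leaving out single libraries on the deposited scale. There the call was lost without some of the libraries. Scaling by the deposited factors moved most counts, and the cause was not tested. Low members are limited by reads, and 5 were not tested.

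On the deposited scale 1462 genes were called, 1207 higher and 255 lower, and 1 member, higher, with 0 lower. Its list counts were 0 for E1 enzymes, other E2 genes, Ube2a and Ube2b partners, APC/C, ER ligases and blood markers, 1 for CTLH, neddylation, Lys63 ligases, oocyte, granulosa and theca markers, 2 for SUMO and 3 for RBR and HECT ligases. Log2 fold changes that turned positive there were Ube2f 0.12, Ube2t 0.21, Ube2e3 0.18, Ube2v1 0.17, Ube2k 0.17, Ube2m 0.32, Ube2cbp 0.046, Ube2e2 0.31, Ube2dnl1 0.068, Ubb 0.18, Fbxo5 0.031, Pias1 0.0105, Cyp19a1 0.0309 and Serpine2 0.25.

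With the deposited factors on shares of reads, 4055 genes were called, 1027 of them higher, and 6 members, 1 higher. List counts were 0 for E1 enzymes, 1 for other E2 genes, 2 each for Ube2a and Ube2b partners, APC/C, neddylation and ER ligases, 5 each for Lys63 ligases and oocyte markers and 9 for RBR and HECT ligases. Log2 fold changes turned negative for Ube2w (-0.18), Ube2c (-0.12), Ube2q1 (-0.17), Ube2d3 (-0.069), Ube2j1 (-0.00603), Ube2r2 (-0.027), Ube2d1 (-0.061), Ube2n (-0.097), Ube2b (-0.21), Ube2z (-0.0401), Ube2o (-0.17) and H2-Aa (-0.095).

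The E1 count was 1 with edgeR, no filter and pseudocounts of 0.1 and 0.5. Without a filter, ER ligases had 4 calls and granulosa markers 2; with library sizes only, modifiers had 3. Log2 fold changes near 0 changed sign for Ube2e2 (0.0033 in DESeq2, 0.027 with library sizes only, 0.0063 with median-of-ratios factors, 0.016 with no filter, 0.00085 and 0.00037 with pseudocounts of 0.1 and 0.5), Ube2m (0.024 with library sizes only, 0.0035 with median-of-ratios factors, 0.014 with no filter) and Ube2v1 (0.0012 with library sizes only).

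Same-numbered libraries correlated at 0.079, 0.075 and -0.120 in their deviations from group means, and differently numbered ones between -0.231 and 0.237. These few values show no pairing by number, and they cannot exclude it. With a replicate block 6234 genes and the same count of 10 members, 5 higher and 5 lower, were called, and E1 enzymes had 1 call.

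Leaving out each library in turn, 3 to 6 members were higher and 5 to 8 lower; the low value of 3 came without Nat10 cKO replicate 1, Nat10 cKO replicate 2 or WT replicate 1, and the high value of 8 without WT replicate 2, where Ube2t, Ube2ql1 and Ube2cbp were added. On the deposited scale 0 to 1 member was called. Genes called higher numbered 2108 to 3431. List counts ran from 0 to 3 (E1), 1 to 2 (modifiers), 1 to 4 (APC/C), 4 to 8 (neddylation), 4 to 8 (ER), 4 to 9 (SUMO), 5 to 11 (Lys63), 12 to 23 (RBR and HECT), 1 to 3 (granulosa) and 2 to 4 (theca, stroma and endothelium). Log2 fold changes ran from -0.059 to 0.066 (Ube2b), -0.23 to 0.031 (Ube2dnl1), -0.13 to 0.11 (Ube2e2), -0.12 to 0.13 (Ube2m), -0.044 to 0.18 (Ube2o), -0.073 to 0.17 (Ube2q1), -0.098 to 0.096 (Ube2v1), -0.075 to 0.12 (Ube2w) and -0.075 to 0.19 (H2-Aa). Log2 ratio differences ran from -0.065 to 0.062 for Ube2d1 to Ube2d3 and from -0.94 to 0.23 for Ube2l3 to Ube2l6.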
